A study of Mus musculus with 8 samples.

Results

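The genes described here are the 4 FGF receptor genes (Fgfr1 to Fgfr4) and 6 genes of the feedback on ERK signalling (Spry1, Spry2, Spry4, Spred1, Dusp6 and Etv4). They were taken by symbol, through their Ensembl identifiers, from a count table of 55401 genes, and all 10 were found there. RNA was sequenced from mouse prospermatogonia at stage E17.5, germ cells of the male fetus from which spermatogonia later arise. The labels give the genotype Tet1-/- for 4 libraries (KO 1 to KO 4) and Tet1+/+ for the other 4 (WT 1 to WT 4), with batch 1 for each. No source used here gives the kind of Tet1 allele, the strain or the way the cells were isolated. By its title, the series is about what TET1 does in the male germline apart from catalysis, and names the chromatin that guides new DNA methylation there. The question asked of these genes is whether their transcripts differ between the labelled groups.

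FGF receptors are tyrosine kinases at the cell surface. On binding an FGF they pass a signal through the adaptor FRS2, RAS, RAF and MEK to the kinase ERK. In the fetal testis FGF9 is known as a signal for Sertoli cell fate and for the male fate of germ cells. ERK switches on its own inhibitors: Sprouty and SPRED proteins act on the steps from receptor to RAF, and DUSP phosphatases remove phosphate from ERK. ETV4 and ETV5 are ETS transcription factors rather than such inhibitors. Their genes, induced by FGF signals, are counted here with the feedback genes. Transcript levels of these genes are often read as a trace of ERK activity, but protein or phosphorylation was not measured here.

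Total counts ran from 13820764 to 20115250 per library. The Tet1 transcript was higher, not lower, under the KO label. It had 31.9 ± 1.95 CPM (SD, n = 4) in the WT-labelled and 124 ± 33.4 CPM (SD, n = 4) in the KO-labelled libraries. A count per gene does not show which exons were read, and the kind of allele is not given. It therefore cannot show whether the labels are right, and every direction below refers to the labels as deposited. CPM here are counts scaled to library size with edgeR's TMM factors. KO 4 stood apart: the summed level of 6 Leydig cell markers was 1803 CPM there, 14.9 to 22.7 CPM in the other KO-labelled libraries and 16.5 to 32.5 CPM in those labelled WT. The germ cell markers, 10 of 10 detected, summed to 2495 to 2944 CPM in the WT-labelled and 2185 to 2686 CPM in the KO-labelled libraries. Of other fetal testis cells, 10 Sertoli markers summed to 50.4 to 64.4 CPM (WT) and 44.7 to 153 CPM (KO, highest in KO 4), and 9 stromal markers to 105 to 163 and 148 to 194 CPM. The 5 myoid markers summed to 43.7 to 80.0 CPM (WT) and 17.6 to 30.1 CPM (KO), the 6 endothelial ones to 69.3 to 79.3 and 57.4 to 67.3 CPM, and the 6 blood markers to 4.87 to 8.93 and 4.43 to 7.78 CPM. Insl3 of Leydig cells had 0 counts in KO 1, KO 2 and WT 4, but 387 counts in KO 4. Fshr of Sertoli cells was at 0.41 CPM or lower in every library, while Clu of the same list was at 17.0 to 52.5 CPM. Mki67, a gene of dividing cells named here after its values were seen, was at 72.6 ± 8.64 CPM (SD, n = 4) in the WT-labelled and 581 ± 64.9 CPM (SD, n = 4) in the KO-labelled libraries, and its part in the results below was not tested. In bulk RNA, fewer cells of a type and less RNA per cell cannot be told apart.

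Because the title names DNA methylation, which falls mainly on CpG sites, the stretch before the start is shown for a feedback gene that rose, for one that did not pass and for the gene with the most CpG among the matched members. Methylation was not measured here. Sequences are from RefSeq (GRCm38.p6, the assembly of mm10), which matched 7 of the 10 members with 8 starts; Fgfr1, Spry4 and Etv4 were not matched. The 250 bases before the start are given 5′ to 3′ in the direction of the gene, with each CpG in capitals. They lie at chr10:99262981-99263230 (Dusp6, plus strand), chr14:105896820-105897069 (Spry2, minus strand) and chr2:117120821-117121070 (Spred1, plus strand).
Dusp6: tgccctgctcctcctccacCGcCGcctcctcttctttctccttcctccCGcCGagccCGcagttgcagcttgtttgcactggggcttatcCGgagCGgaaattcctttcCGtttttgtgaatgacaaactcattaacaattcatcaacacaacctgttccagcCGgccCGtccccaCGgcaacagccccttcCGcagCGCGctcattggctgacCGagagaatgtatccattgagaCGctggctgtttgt
Spry2: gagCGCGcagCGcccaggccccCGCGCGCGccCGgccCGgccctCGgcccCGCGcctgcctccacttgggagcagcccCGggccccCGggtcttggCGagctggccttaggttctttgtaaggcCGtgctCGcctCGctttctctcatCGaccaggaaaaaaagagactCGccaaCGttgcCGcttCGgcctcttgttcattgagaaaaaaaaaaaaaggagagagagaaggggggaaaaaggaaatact
Spred1: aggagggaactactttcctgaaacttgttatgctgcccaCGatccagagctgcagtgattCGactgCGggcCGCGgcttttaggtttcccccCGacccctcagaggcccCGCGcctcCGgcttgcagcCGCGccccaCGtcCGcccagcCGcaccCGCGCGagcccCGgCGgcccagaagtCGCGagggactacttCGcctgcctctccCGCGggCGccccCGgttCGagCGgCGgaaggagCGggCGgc
Dusp6 had 16 CpG, Spry2 23 and Spred1 31, against a median of 6 over the 32851 promoters in the table. The shares of promoters with fewer CpG were 74.6%, 86.7% and 94.8%. Spred1 was picked for its CpG number, so its place above the others was set by that choice. Of the other matched members, Fgfr3, which rose, had 19 and 24 CpG in its windows. Spry1, which did not pass, had 23, and Fgfr4, which was lower, had 15. Whether CpG number goes with the difference between the groups was not tested. The start of Dusp6 and of Spry2 was also a GENCODE M21 start, while that of Spred1 lay 303 bases from the nearest one. The start listed for Fgfr2, with 2 CpG in its window, was 545 bases from the nearest GENCODE start. The letters CCGGAA, a core bound by ETS factors, were searched on both strands. They were found in 1 of the 8 windows of members (Fgfr4) and in 12% of all promoters.

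Of the 10 members, 6 were higher, 1 was lower and 3 did not pass in the KO-labelled libraries (edgeR quasi-likelihood test, Benjamini-Hochberg adjusted p under 0.05 over 24005 genes). Fgfr2, Dusp6 and Etv4 rose most, Fgfr3, Spred1 and Fgfr1 by less, Fgfr4 was lower, and the Sprouty genes did not pass. Over all genes tested 53.5% passed, 25.3% higher and 28.2% lower, so that 7 passing of 10 is to be read beside a high background. The median log2 difference was 0.85 over the members and -0.05 over all genes tested. Direction also differed by level: where the mean log2 CPM reached 4, 46.0% of genes were higher, and below it 14.3%. Fgfr1, Fgfr2 and Spred1 reached that level, and all 3 were higher. Below it were 7 members, 3 of them higher and 1 lower. Here and in the lists below the mean is over both groups, so a difference can itself move a gene across the level. This was so for Fgfr2, at a mean of 7.54 CPM in the WT-labelled and 39.1 CPM in the KO-labelled libraries. Its place at that level is thus no result apart from its rise. For 6 of the 10 members all KO-labelled libraries lay above all WT-labelled ones, as for 23.2% of all genes tested; 48.4% had groups apart in either direction.

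**Figure D1:**
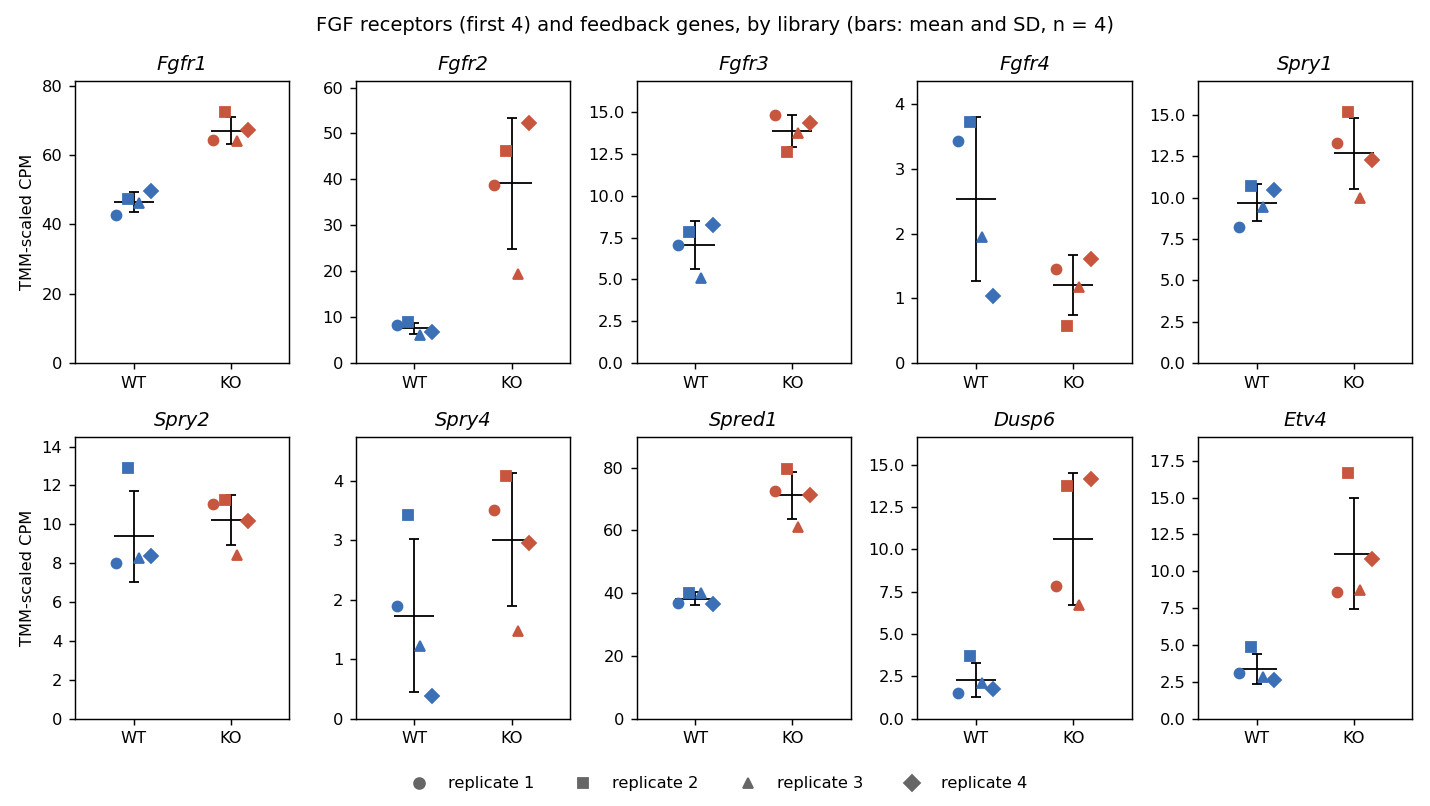
TMM-scaled CPM (y axis, from 0) of each member in the 4 WT-labelled (blue) and 4 KO-labelled (red) libraries, with marker shapes for the replicate number and bars for mean and SD. The groups do not overlap for Fgfr1, Fgfr2, Fgfr3, Spred1, Dusp6 and Etv4, and KO 3 is the lowest KO-labelled library for 7 of the 10 genes. How often KO 3 is lowest over all genes was not counted.

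Fgfr1 (ENSMUSG00000031565.18, chromosome 8, 25513654 to 25575718, plus strand, GRCm38) was the most abundant receptor. Its level was 42.8, 47.4, 46.2 and 49.8 CPM in WT 1 to WT 4 and 64.5, 72.5, 64.0 and 67.3 CPM in KO 1 to KO 4. All KO-labelled libraries were above all WT-labelled ones, with little spread in either group. This was a 1.44-fold rise, or 0.53 on the log2 scale (SE 0.0994, edgeR adjusted p = 0.000675). It was the smallest of the 6 rises, and it fell to 0.29 with upper-quartile scaling and 0.35 with scaling on ribosomal protein genes, where it still passed.

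Fgfr2 (ENSMUSG00000030849.18, chromosome 7, 130162451 to 133123350, minus strand) encodes the receptor that is known in Sertoli cells for its part in testis development. It had 8.35, 8.89, 6.18 and 6.73 CPM in WT 1 to WT 4 and 38.7, 46.2, 19.3 and 52.3 CPM in KO 1 to KO 4. The WT-labelled libraries lay close together, while KO 3 was the lowest of its group and still above all of them. Fgfr2 rose by a log2 difference of 2.38 (SE 0.258, edgeR adjusted p = 1.15e-05), or 5.20-fold. The annotated gene is long because 1 transcript begins at the neighbouring Ctbp2, and 314 exon bases (3.04% of those of Fgfr2) belong to both genes. Ctbp2, which encodes a transcriptional corepressor, had 8.92 ± 1.81 CPM (SD, n = 4) in the WT-labelled and 24.8 ± 6.00 CPM (SD, n = 4) in the KO-labelled libraries, and it too was lowest of the KO-labelled ones in KO 3, at 16.2 CPM. No source used here says how reads on the shared bases were assigned, and the part of Ctbp2 in the Fgfr2 value was not tested.

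Fgfr3 (ENSMUSG00000054252.18, chromosome 5, 33721674 to 33737068, plus strand), a receptor best known as a brake on bone growth, rose 1.97-fold within a narrow spread. It had 7.07, 7.84, 5.06 and 8.28 CPM in WT 1 to WT 4 and 14.8, 12.6, 13.7 and 14.3 CPM in KO 1 to KO 4. The groups did not overlap, and KO 3 was not the lowest here. Its log2 difference was 0.98 (SE 0.178, edgeR adjusted p = 0.000527). An unstudied transcript on the opposite strand, G630022F23Rik, covers 13.9% of its exon bases and had 1 to 14 counts per library.

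Fgfr4 (ENSMUSG00000005320.9, chromosome 13, 55152640 to 55168759, plus strand), known in liver as the receptor for the gut hormone FGF15, was the only member with a negative difference. It rested on few reads, with 67, 64, 40 and 16 counts in WT 1 to WT 4 and 22, 10, 16 and 25 counts in KO 1 to KO 4. In CPM these were 3.43, 3.72, 1.95 and 1.03 against 1.46, 0.567, 1.18 and 1.61, so that WT 4 lay within the KO-labelled range. Fgfr4 had a log2 difference of -1.08 (SE 0.428, edgeR adjusted p = 0.0470). The call was lost under 9 of 18 alternatives, with DESeq2 (adjusted p = 0.0568) and without any of KO 1, KO 2, KO 3, WT 1, WT 2 or WT 3 (edgeR adjusted p from 0.0566 to 0.139) among them.

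Of the 6 feedback members, Dusp6, Etv4 and Spred1 passed as higher. Dusp6 (ENSMUSG00000019960.8, chromosome 10, 99263231 to 99267489, plus strand) encodes a cytoplasmic phosphatase that acts on ERK. It had 1.49, 3.72, 2.09 and 1.75 CPM in WT 1 to WT 4 and 7.82, 13.7, 6.72 and 14.1 CPM in KO 1 to KO 4. The lowest KO-labelled library was above the highest WT-labelled one, and within the KO-labelled group KO 2 and KO 4 were well above KO 1 and KO 3. The log2 difference was 2.23 (SE 0.327, edgeR adjusted p = 0.000105), or 4.70-fold.

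Etv4 (ENSMUSG00000017724.14, chromosome 11, 101769742 to 101785371, minus strand), an ETS transcription factor gene induced by FGF signals, behaved likewise. It had 3.07, 4.88, 2.82 and 2.65 CPM in WT 1 to WT 4 and 8.61, 16.7, 8.71 and 10.8 CPM in KO 1 to KO 4. The groups did not overlap, and KO 2 was the highest. For Etv4 the log2 difference was 1.74 (SE 0.267, edgeR adjusted p = 0.000150), or 3.34-fold.

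Spred1 (ENSMUSG00000027351.14, chromosome 2, 117121374 to 117182279, plus strand) encodes an inhibitor that brings the RAS-inactivating protein neurofibromin to the membrane. It was the most abundant feedback member, at 36.7, 40.0, 40.0 and 36.4 CPM in WT 1 to WT 4 and 72.4, 79.5, 61.0 and 71.4 CPM in KO 1 to KO 4. No library of either group came near the other group. Spred1 rose by 0.89 on the log2 scale (SE 0.109, edgeR adjusted p = 2.62e-05), or 1.86-fold.

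None of the 3 Sprouty genes passed, and their groups overlapped. Spry1 (ENSMUSG00000037211.12, chromosome 3, 37639947 to 37644598, plus strand) had 8.20, 10.7, 9.44 and 10.5 CPM in WT 1 to WT 4 and 13.3, 15.2, 9.96 and 12.3 CPM in KO 1 to KO 4. Only KO 3 lay within the WT-labelled range. Its log2 difference was 0.39 (95% interval 0.02 to 0.76, edgeR adjusted p = 0.0694), with an adjusted p of 0.0208 without KO 3 and of 0.0419 with DESeq2. A transcript on the opposite strand, Gm42922, with 1 to 13 counts per library, covers 24.4% of its exon bases.

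Spry2 (ENSMUSG00000022114.5, chromosome 14, 105891947 to 105896819, minus strand) had 7.99, 12.9, 8.28 and 8.35 CPM in WT 1 to WT 4 and 11.1, 11.2, 8.41 and 10.2 CPM in KO 1 to KO 4. WT 2 was the highest of all 8 libraries. The log2 difference was 0.13 (95% interval -0.29 to 0.54, edgeR adjusted p = 0.603), an interval that leaves out a change of the size seen for Dusp6, Etv4 or Spred1. Scaling by the upper quartile turned it to -0.12, and scaling on ribosomal protein genes to -0.07. Spry4 (ENSMUSG00000024427.7, chromosome 18, 38586247 to 38601415, minus strand) was scarce, at 1.90, 3.43, 1.22 and 0.388 CPM in WT 1 to WT 4 and 3.51, 4.08, 1.48 and 2.96 CPM in KO 1 to KO 4. Its log2 difference of 0.80 had a wide interval (-0.25 to 1.84, edgeR adjusted p = 0.181), and it rested on single libraries: without WT 2 it was 1.35 (edgeR adjusted p = 0.0271), and without WT 4 it was 0.50 (0.316).

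**Figure D2:**
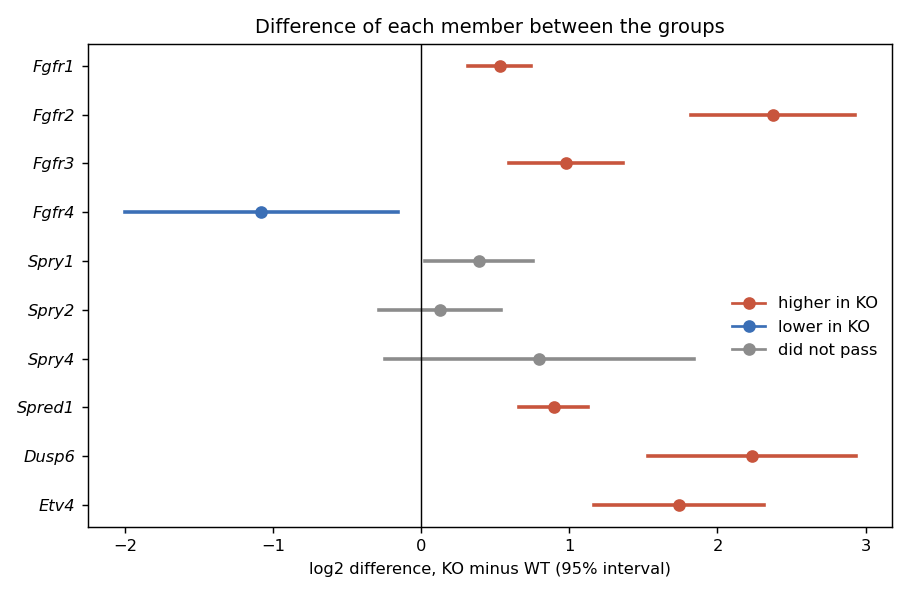
Log2 difference between the KO-labelled and WT-labelled libraries (x axis) of each member, with an approximate 95% interval worked back from the edgeR test. Red passed as higher, blue as lower, grey did not pass. Fgfr2 (2.38) and Dusp6 (2.23) are farthest to the right, and the interval of Fgfr4 ends near 0.

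Marker genes of the cells in the testis are given beside these results, where 25.3% of all genes were higher and 28.2% lower. Of 9 stromal markers 3 were higher and 0 lower, and of 9 Sertoli markers tested 4 were higher and 1 lower. All 5 Leydig markers tested were higher, with groups that overlapped, and of 10 germ cell markers 3 were higher and 3 lower. Of the 4 myoid markers tested 0 were higher and 3 lower, of the 5 endothelial ones 1 and 4, and of the 4 blood ones 1 and 2. Without KO 4, the library with the Leydig transcripts, the same number of members passed, 6 higher and 1 lower. The log2 difference was then 2.24 for Fgfr2, 2.09 for Dusp6 and 1.79 for Etv4. With the mean somatic marker level as a covariate it was 2.28, 2.14 and 1.74, and again 6 members were higher and 1 lower. That covariate was 3.29 in KO 4 and 2.08 to 2.63 elsewhere, so it mainly marked KO 4. As a mean over lists that moved in opposite directions, it cannot adjust for each cell type.

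Levels were compared between genes only per kilobase of exon (RPKM from TMM-scaled CPM). In the WT-labelled libraries Spred1 was highest at 5.64 ± 0.289 RPKM (SD, n = 4), apart from Fgfr1 at 4.71 ± 0.293 RPKM (SD, n = 4). Fgfr1 and Spry2 overlapped, Spry1 was apart from both neighbours, and each neighbouring pair from Etv4 through Fgfr3, Fgfr2, Dusp6 and Fgfr4 to Spry4, all at means of 1.08 RPKM or lower, overlapped. In the KO-labelled libraries Spred1 was at 10.5 ± 1.12 RPKM (SD, n = 4) and Fgfr1 at 6.79 ± 0.396 RPKM (SD, n = 4), both apart from the next gene. Fgfr2, at place 7 of 10 in the WT-labelled libraries at 0.730 RPKM, moved up to place 5 in the KO-labelled ones at 3.79 RPKM, and overlapped there with Spry1 above and Etv4 below it. Fgfr4 came last at 0.340 RPKM.

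Ratios between members within a library do not depend on how libraries are scaled. The ratio of Fgfr2 to Fgfr1, in counts per kilobase, was 0.186, 0.179, 0.128 and 0.129 in WT 1 to WT 4 and 0.574, 0.610, 0.289 and 0.743 in KO 1 to KO 4. Fgfr1 thus stayed the more abundant receptor in every library, and the gap was smaller in those labelled KO. The ratio of Fgfr3 to Fgfr1 was 0.209 ± 0.0387 (SD, n = 4) in the WT-labelled and 0.287 ± 0.0332 (SD, n = 4) in the KO-labelled libraries, without overlap. That of Fgfr4 to Fgfr1 was 0.154 ± 0.0807 and 0.0507 ± 0.0203 (SD, n = 4 each), with overlap. Against Spry2, the ratio of Dusp6 was 0.156 ± 0.0304 and 0.686 ± 0.220, that of Etv4 0.239 ± 0.0213 and 0.733 ± 0.197, and that of Spred1 1.30 ± 0.238 and 2.15 ± 0.0936 (SD, n = 4 each, WT then KO). The 6 ratios were chosen after the values were seen. Since each was set over a gene already seen to rise least (Fgfr1) or not to pass (Spry2), they are a description, with no test.

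**Figure D3:**
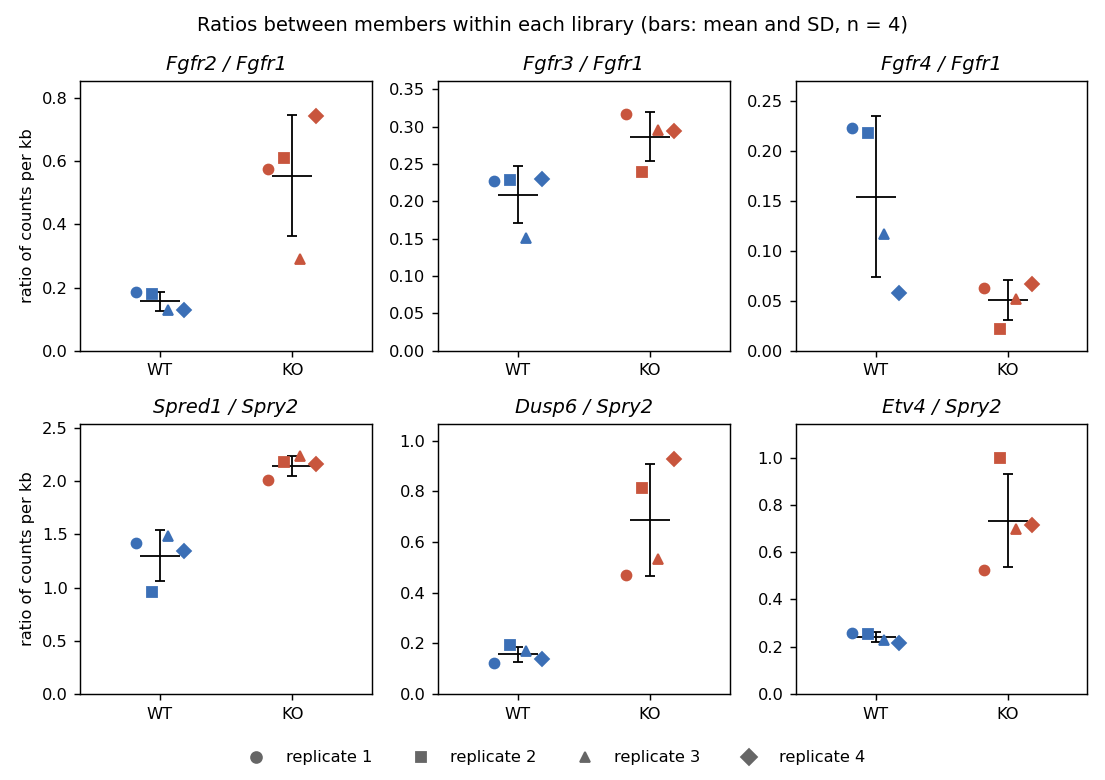
Ratios of counts per kilobase between members within each library (y axis, from 0), WT-labelled in blue and KO-labelled in red, with marker shapes for the replicate number and bars for mean and SD. The groups are apart for all ratios drawn except Fgfr4 to Fgfr1, and KO 3 has the lowest Fgfr2 to Fgfr1 ratio of its group, at 0.289.

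A list of 15 other feedback genes held Spry3, Spred2, Spred3, 9 DUSP genes, Etv1, Etv5 and Il17rd. All but Spry3, which was not matched, were tested, with 8 higher, 1 lower and 5 not passing, and a median log2 difference of 0.79. Passing, at 64.3% of the list, was near the 53.5% of all genes. At a mean log2 CPM of 4 or above, 4 of 6 were higher, beside 46.0% of all genes at that level, and below it 4 of 8 were higher and 1 lower, beside 14.3% and 33.8%. Spred2 and Etv5 reached that level only through their KO-labelled libraries, so their place there follows from their rise. Dusp1, Dusp2, Dusp5, Dusp10 and Il17rd did not pass. Dusp4, which encodes a nuclear ERK phosphatase, went from 2.20, 4.24, 1.66 and 1.03 CPM in WT 1 to WT 4 to 21.5, 38.0, 17.6 and 36.6 CPM in KO 1 to KO 4, a log2 difference of 3.63 (SE 0.367, edgeR adjusted p = 6.85e-06). Etv5, an ETS factor gene needed for the upkeep of spermatogonial stem cells, rose from 7.01 ± 0.800 to 52.9 ± 23.0 CPM (SD, n = 4), with all KO-labelled libraries above those labelled WT. Spred2, the nearest relative of Spred1 in this list, rose from 7.61 ± 1.46 to 42.5 ± 12.6 CPM (SD, n = 4), and Dusp9, a further ERK phosphatase gene, from 34.1 ± 4.83 to 94.5 ± 16.4 CPM (SD, n = 4). The single gene that fell was Dusp8 (-0.51), a phosphatase gene best known for acting on the kinase JNK; it lost its call under 11 of 18 alternatives. Scaling by the upper quartile, or on ribosomal protein genes, left 7 that rose and gave 2 that fell.

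Among ligands and co-receptors, more genes were lower than higher. The list also holds Fgf11, Fgf12, Fgf13 and Fgf14, homologues that stay in the cell, of which only Fgf12 passed. Of 28 genes 23 were tested, with 2 higher, 11 lower and 10 not passing, and a median log2 difference of -0.74. Passing, at 56.5%, was near the 53.5% of all genes. Most of the list was scarce: 19 of the 23 had a mean log2 CPM under 4. Of these, 9 were lower and 1 higher, beside 33.8% and 14.3% of all genes at that level. At 4 or above, 2 of 4 were lower and 1 higher, beside 17.7% and 46.0%. Fgf10 had 224 counts over the WT-labelled and 30 over the KO-labelled libraries, a log2 difference of -2.65, and Fgf12, an FGF homologue that stays in the cell, had one of -2.0. Fgf2 fell by 1.04 and Fgf8 by 0.70 on the log2 scale, Fgf8 from 20.1 ± 2.34 to 12.4 ± 1.43 CPM (SD, n = 4). Fgf9 was at 1.80 ± 0.330 and 1.36 ± 0.294 CPM (SD, n = 4), a log2 difference of -0.41 (95% interval -1.07 to 0.25, edgeR adjusted p = 0.276). The 2 that rose were Fgf17 (2.13), a relative of Fgf8, and Fgfrl1 (0.62), which encodes an FGF receptor without a kinase domain. Without KO 2, KO 4 or WT 1 only 8 of the 23 genes of this list passed, 2 higher and 6 lower each time. Of all genes tested, 6024 of 25408 were lower without KO 2, 6258 of 25288 without KO 4 and 5960 of 24491 without WT 1. Fgf8, Fgf9 and the less common directions here and below were named after their values were seen.

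The RAS-ERK cascade list held 23 genes, of which 15 rose, 3 fell and 5 did not pass, with a median log2 difference of 0.36. Map2k1, which encodes MEK1, the kinase of ERK, went from 14.4, 9.47, 11.5 and 11.7 CPM in WT 1 to WT 4 to 32.2, 30.1, 25.8 and 31.1 CPM in KO 1 to KO 4, a log2 difference of 1.34 (SE 0.149, edgeR adjusted p = 1.36e-05). Sos1, the activator of RAS, rose by 0.98, Map2k2 by 0.73 and the RAF-activating scaffold gene Shoc2 by 0.71. Those that fell were Mapk3 (-0.56), which encodes ERK1, Braf (-0.46) and the scaffold gene Ksr1 (-0.39), whose call was lost without the low-count filter (adjusted p = 0.0546). Nearly the whole list, 22 of 23, was at a mean log2 CPM of at least 4, where 46.0% of all genes were higher and 17.7% lower. The count followed the scaling: scaling on ribosomal protein genes left 8 that rose and 3 that fell, and upper-quartile scaling 9 and 6.

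Other receptor tyrosine kinases that feed the same cascade were compared with the FGF receptors. Among 17 such genes 3 rose, 8 fell and 6 did not pass, with a median log2 difference of -0.48. Passing, at 64.7%, was again near the 53.5% of all genes. At a mean log2 CPM of 4 or above, 3 of 11 were higher and 4 lower, beside 46.0% and 17.7% of all genes, and below it 4 of 6 were lower, beside 33.8%. Met, the receptor of hepatocyte growth factor, fell from 88.8 ± 19.7 to 27.6 ± 4.99 CPM (SD, n = 4), or by 1.69 on the log2 scale, Flt1, a VEGF receptor, by 1.30 and Egfr by 1.09. Those that rose were Erbb3 (1.04), Kit (0.55), the receptor of stem cell factor on germ cells, and Insr (0.53). Kit and Insr lost their calls with upper-quartile scaling (adjusted p = 0.0606 and 0.0551), which gave 1 higher and 10 lower, and Insr also with ribosomal protein scaling (0.0752). Whether these genes differ as a group from the FGF receptors was not tested.

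**Figure D4:**
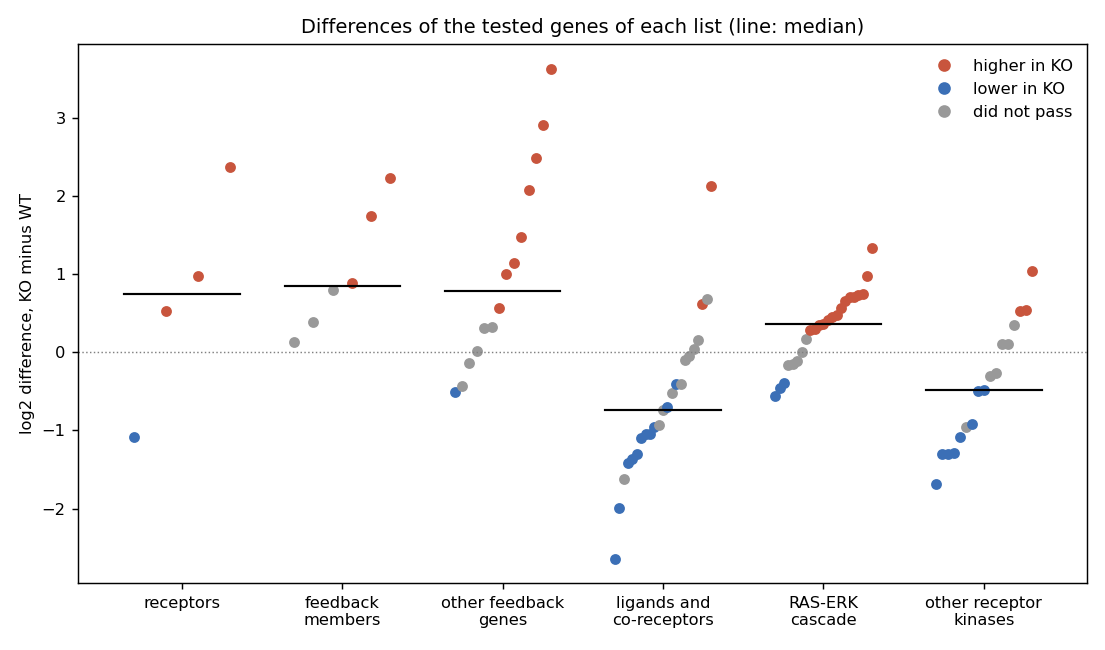
Log2 difference between the KO-labelled and WT-labelled libraries (y axis) of each tested gene, by list, with a line at the list's median; red passed as higher, blue as lower, grey did not pass. The medians are 0.75 for the receptors, 0.85 for the feedback members, 0.79 for the other feedback genes and 0.36 for the RAS-ERK cascade. They are -0.74 for ligands and co-receptors and -0.48 for other receptor kinases. The lists differ in level, and direction differed by level over all genes.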

How the data were processed

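Raw counts per gene, whole numbers with no normalization, were deposited by the authors for 8 libraries of ribosomal RNA-depleted total RNA (5 ng input, a kit with unique molecular identifiers, per the labels' protocols). Per the submitters' processing notes the build was mm10 and the tools were STAR, featureCounts 1.5.0, Trim Galore, DESeq2 and edgeR. No source used here gives collapse by molecular identifier, the strand setting or the annotation release, so counts of overlapping genes are uncertain.

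Identifiers without version were matched to GENCODE M21 (55141 of 55401). The analysis used edgeR 4.0.16 (R 4.3.3): filterByExpr, TMM scaling, a quasi-likelihood fit with genotype as its only term, and Benjamini-Hochberg adjustment over 24005 genes, with adjusted p under 0.05 as the threshold. Each SE was worked back from the log2 difference and the F value of the quasi-likelihood test. Intervals use that SE, so both are approximate. Intervals are at 95% and take in the spread between libraries. A count of 0 allows 3 counts, or 0.149 to 0.217 CPM, for counting error only. Unlike the other CPM, these are over total counts without the TMM factors. Each library has a name of its own in the labels, and those of KO 1 and WT 1 share a number whose meaning is not stated. The labels do not say that the libraries came from separate animals, so p-values may measure technical spread. Pairs within a group differed by more than counting noise (chi-square per degree of freedom 7.34 to 26.5). On simulated counts with the real means and library sizes, the fit recovered 44.4% of 99 genes changed by a log2 of 1. It recovered 85.0% of 100 changed by 2, among 23377 genes tested, none with the wrong sign. Of its 141 calls, 12 were genes left unchanged. In the real data 53.5% of genes passed, and the adjusted threshold depends on the share of genes that change. These rates therefore do not carry over to the real comparison.

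The members and lists were chosen with earlier results of these data known. Named were the 10 members, Tet1, and the 4 genes of each pathway list with the lowest p; others were named after their values were seen. Alternatives were DESeq2 1.42.0, limma 3.58.1 with library weights, robust dispersion, RLE, upper-quartile and ribosomal protein scaling (80 genes), a stricter filter (CPM of 1 in 4 libraries), none at all, a somatic marker covariate, a block for the replicate number and leaving out each library.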

Additional observations from a re-analysis of the deposited data

Results flagged for a closer look

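Spry2 in WT 2 stood apart from the rest of its group at 12.9 CPM, against 7.99 to 8.35 CPM in WT 1, WT 3 and WT 4 (its gap to the next library was 0.927 of the group's range, above Dixon's 95% limit). Among 20 groups of 4 libraries, 2 for each member, it was the 1 such case, and chance gives about 1 in 20. Spry4 was also highest in WT 2 of the WT-labelled libraries, at 3.43 CPM, and 7 of the 10 members were. How often WT 2 is highest over all genes was not counted. The mean log2 level of the somatic markers was 2.63 in WT 2 and 2.17 to 2.22 in the other WT-labelled libraries. The part of somatic RNA in the Spry2 value was not tested.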

How the results depend on the processing

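Over 18 alternatives, Fgfr1, Fgfr2, Fgfr3, Spred1, Dusp6 and Etv4 kept their direction and passed in each, with log2 differences from 0.29 to 0.59 for Fgfr1, 2.13 to 2.63 for Fgfr2, 0.74 to 1.13 for Fgfr3, 0.65 to 0.98 for Spred1, 1.98 to 2.58 for Dusp6 and 1.49 to 1.98 for Etv4. The number of members passing ran from 6 to 8 (8 higher and 0 lower with limma and library weights), and from 6 to 7 with a library left out. The sign of Spry2 turned with upper-quartile (-0.115) and ribosomal protein scaling (-0.067), and the cause was not tested beyond the shift of all genes that these scalings bring, whose median went from -0.05 to -0.29 and -0.23. These scalings gave 4033 higher and 8882 lower, and 3999 and 7605, of all genes, against 6083 and 6770. The RAS-ERK cascade had 11 passing with ribosomal protein scaling. With a library left out, 8 to 12 ligands and co-receptors passed. Spry1 and Spry4 also passed with limma and library weights (adjusted p = 0.0200 and 0.0275). With the replicate number as a block, 6 members and 11518 genes passed and Fgfr4 did not (adjusted p = 0.117). The numbers as a set did not pair the libraries. Deviations from the group means correlated at 0.214, -0.241, -0.145 and -0.010 for numbers 1 to 4. KO 1 and WT 1, whose library names share a number, did correlate best with each other. KO 2 correlated best with WT 4 (0.284) and KO 3 with WT 2 (0.209). Whether KO 1 and WT 1 belong together was not tested. Fgfr4 and Spry4 had the fewest counts of the members, 6 to 72 per library, and whether depth or the spread between libraries limits them was not tested.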

Other observations

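Among the 11 feedback genes that rose, members and others together, KO 3 was the lowest KO-labelled library for 8 (Spred1, Dusp6, Spred2, Spred3, Dusp4, Dusp7, Etv1 and Etv5) and KO 2 the highest for 7. Fgfr1 and Fgfr2 were lowest in KO 3 as well, and so was Tet1, at 75.8 CPM against 129 to 147 CPM in KO 1, KO 2 and KO 4. Etv5 had 28.0 CPM in KO 3 and 83.0 CPM in KO 2. TMM factors were 0.984 in KO 3 and 0.885 in KO 2, and their part in this order was not tested. The lowest and highest library were not counted over all genes, so this order may not be particular to the genes named.

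Among the 8363 other genes whose mean log2 CPM reached 4, those whose log2(CPM + 1) followed Fgfr1 most closely over the 8 libraries were Vkorc1l1 (Pearson r = 0.9975), Tor1aip2 (0.9957) and Arf1 (0.9954). The groups do not overlap for Fgfr1, so r holds the difference between them, and it is given as a description.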
